A study of Mus musculus with 11 samples.

Results

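Haematopoietic stem cells that carried CD41 on their surface were compared with those that lacked it, both taken from platelet-depleted mice at 24 h. The libraries of these groups were taken by their labels, 3 of CD41+ and 3 of CD41- cells, and they make up 6 of the 11 libraries of the study. All cells came from C57BL/6 mice and were sorted from bone marrow as lineage-negative cells positive for c-Kit, Sca-1 and CD150 and negative for CD48. The other 5 libraries, 3 of CD41- and 2 of CD41+ cells, came from control mice that received rabbit serum in place of the depleting treatment. Each library started from cells pooled from 3 mice, and the RNA of 1000 cells was amplified. The labels give no age, and they describe the libraries as biological replicates, so the tests below measure the spread between pools of mice.

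CD41, the integrin alpha-IIb chain encoded by Itga2b, forms with integrin beta-3 the fibrinogen receptor of platelets. It is carried by megakaryocytes and also by a share of stem cells, and stem cells with CD41 or von Willebrand factor are known for a bias towards megakaryocytes and platelets. Loss of platelets frees thrombopoietin, which acts on both megakaryocytes and stem cells.

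The 6 libraries differed in depth, from 0.974 M counts in CD41+ replicate 1 to 9.95 M in CD41- replicate 1, with the other 4 between 3.50 M and 4.98 M. A floor of 3 counts corresponded to 0.306 CPM (counts relative to the TMM-scaled library total) in the deepest and to 3.34 CPM in the shallowest library. Floors cover counting error only, because molecules amplified by PCR without identifiers are not independent. Markers of neutrophils, which the sort should remove, were present in every library. The summed level of 14 neutrophil markers was 37455, 4168 and 20884 CPM in the CD41- libraries, in replicate order, and 51014, 14409 and 53897 CPM in the CD41+ libraries. Within each pair of libraries with consecutive title numbers the CD41+ member was higher, although the ranges of the fractions overlapped. Stromal and osteoblast markers summed to 76.2, 66.8 and 481 CPM in CD41- and 561, 388 and 749.9 CPM in CD41+ libraries. By this sum CD41- replicate 3 stood with the CD41+ libraries and away from the other CD41- libraries. Much of its sum came from Cxcl12, and other members differed, as given below. In such bulk libraries, fewer cells of a type and less RNA per cell cannot be told apart.

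**Figure D1:**
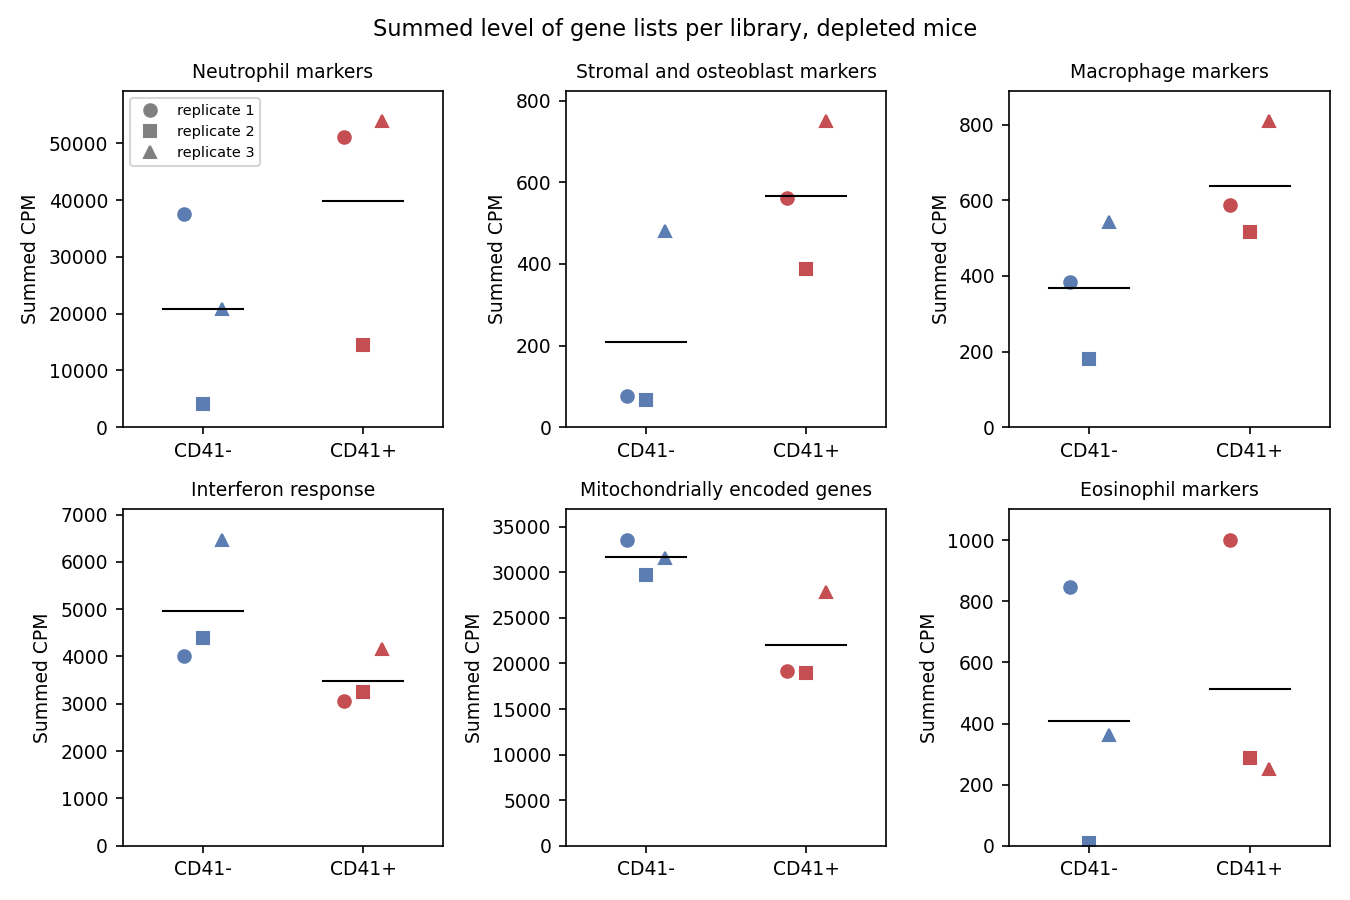
Each panel plots the summed level (CPM, linear axis from 0) of 1 gene list in the 6 libraries of platelet-depleted mice, with CD41- libraries in blue, CD41+ libraries in red, a symbol for each replicate and a line at the group mean. Neutrophil markers are lowest in replicate 2 of both fractions, the stromal sum is high in CD41- replicate 3, and mitochondrially encoded genes are higher in all 3 CD41- libraries than in any CD41+ library.

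Of 13448 genes tested after depletion, 26 were called at an adjusted p of 0.05 (0.193%), of which 9 were higher in CD41+ cells (0.0669%) and 17 were lower (0.126%), by edgeR's quasi-likelihood test with Benjamini-Hochberg adjustment. A gene is called below by this fit unless another tool or the block is named. The count and its balance depended on the tool: DESeq2 called 207 genes (1.54%), 112 higher (0.833%) and 95 lower (0.706%). By limma voom 104 were called (0.773%), 72 higher (0.535%) and 32 lower (0.238%), and edgeR with no filter on low counts called 387, 233 higher and 154 lower. At an unadjusted p of 0.05 there were 1234 genes (9.18%), 560 higher (4.16%) and 674 lower (5.01%), and the median log2 fold change over all genes was -0.03. Counts of list members at that level below are to be read against these shares. Members called by another tool or the block are to be read against the shares that this paragraph gives for that fit. The libraries of the fractions did not overlap for any of the 26 called genes, but these genes were chosen by their p in the same libraries. Of all genes, 8.35% were higher and 9.32% lower without overlap. With libraries of consecutive title numbers treated as a replicate block, a pairing the labels do not state, all 26 were called again among 158 genes (1.17%), 90 higher (0.669%) and 68 lower (0.506%). Without the shallow CD41+ replicate 1, 14 genes were called, 11 higher and 3 lower, and 11 of the 26 were among them. Of the 26, 8 were called without CD41- replicate 1, 5 without CD41- replicate 2, 11 without CD41- replicate 3, 11 without CD41+ replicate 2 and 5 without CD41+ replicate 3. All 26 kept their direction under each of the 20 alternative settings. Because their libraries did not overlap, leaving out 1 library or rescaling could hardly change a sign. Settings that left out a control library kept every library compared here. The kept direction is therefore not a separate check of these genes. Cavin2, Gp5, Itga2b and Tuba8 were called under all 20. Of these, Itga2b encodes CD41, on which the fractions were sorted.

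**Figure D2:**
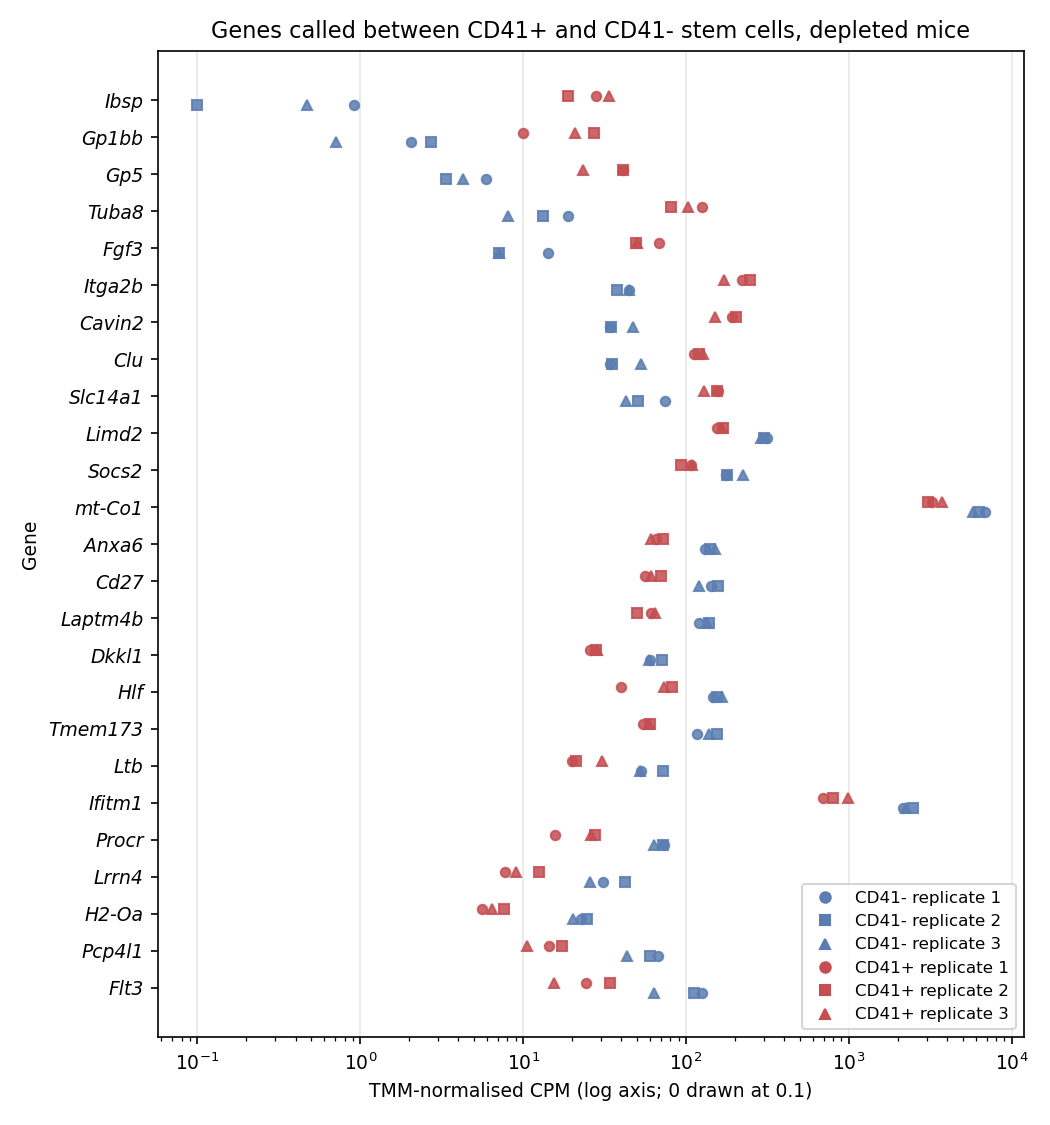
The level of each called gene named in the text is plotted as TMM-normalised CPM on a log axis for the 6 libraries of depleted mice, with CD41- libraries in blue, CD41+ libraries in red and a symbol for each replicate. For every gene the red and blue points form separate groups, from Ibsp, with 0.917, 0 and 0.473 CPM in CD41- cells, to mt-Co1, with 6804, 6277 and 5764 CPM in the same cells. The genes plotted were chosen from these same libraries.

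Genes of 2 platelet adhesion receptors were among the 9 higher in CD41+ cells. Itga2b lies on the minus strand of chromosome 11 from 102453297 to 102470122 (GRCm38, ENSMUSG00000034664). It measured 44.4, 37.5 and 44.7 CPM in the CD41- libraries and 219, 246 and 169.8 CPM in the CD41+ libraries. The fractions were sorted on CD41, the product of this gene, so its difference is tied to the gate and is not a separate finding. At the transcript level the fractions were apart in every library, by a log2 fold change of 2.32 ± 0.25 (adjusted p = 0.00134). Gp5 (chromosome 16, minus strand, 30307685 to 30310779), glycoprotein V of the von Willebrand factor receptor, measured 5.91, 3.35 and 4.26 CPM in CD41- and 41.2, 40.8 and 23.3 CPM in CD41+ libraries. All 3 CD41+ libraries were several times above the highest CD41- library, and Gp5 was higher by 2.90 ± 0.33 on the log2 scale (adjusted p = 0.00174). Gp1bb (chromosome 16, minus strand, 18620317 to 18622403), the beta chain of glycoprotein Ib in the same receptor, measured 2.04, 2.72 and 0.709 CPM and 10.01, 27.05 and 20.7 CPM in that order. Its lowest CD41+ value came from the shallow library, and the gene was higher by 3.41 ± 0.53 (adjusted p = 0.017). Exons of Gp1bb share bases with the neighbouring genes Sept5 and Gm49601 on the same strand in GENCODE M21, so reads in the shared stretch are uncertain.

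The promoters of these 3 receptor genes are shown because the genes differ together while their windows differ in motifs. Each sequence is from RefSeq on GRCm38.p6, 5′ to 3′ on the gene's strand, from 250 bases before to 50 bases after the start. Capitals mark matches on either strand to GATA motifs (AGATAA, the same with a final G as AGATAG, the form TGATAA, and that with a final G as TGATAG) and to ETS motifs (AGGAAG or, with another first base, CGGAAG). Both families have members that act in megakaryocytes.
Itga2b, chr11:102469834-102470133, minus strand: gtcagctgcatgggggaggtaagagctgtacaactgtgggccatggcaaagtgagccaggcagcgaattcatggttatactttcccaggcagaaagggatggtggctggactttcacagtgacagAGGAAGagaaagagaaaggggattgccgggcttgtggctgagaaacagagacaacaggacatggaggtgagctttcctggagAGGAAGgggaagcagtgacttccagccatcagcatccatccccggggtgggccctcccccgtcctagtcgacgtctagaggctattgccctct
Gp5, chr16:30310732-30311031, minus strand: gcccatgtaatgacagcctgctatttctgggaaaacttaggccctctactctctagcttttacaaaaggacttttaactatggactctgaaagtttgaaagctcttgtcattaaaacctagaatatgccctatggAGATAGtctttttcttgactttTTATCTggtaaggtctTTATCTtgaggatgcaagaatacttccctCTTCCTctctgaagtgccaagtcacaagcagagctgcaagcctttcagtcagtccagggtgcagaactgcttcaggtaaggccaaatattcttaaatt
Gp1bb, chr16:18622354-18622653, minus strand: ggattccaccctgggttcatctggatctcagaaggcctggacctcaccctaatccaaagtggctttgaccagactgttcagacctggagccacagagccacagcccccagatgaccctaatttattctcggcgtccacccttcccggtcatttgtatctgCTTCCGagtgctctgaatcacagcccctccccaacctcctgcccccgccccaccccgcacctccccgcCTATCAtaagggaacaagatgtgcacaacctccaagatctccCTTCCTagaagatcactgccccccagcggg
The Itga2b window held 2 ETS matches, which begin 125 and 43 bases before the start, and 0 GATA matches. That RefSeq start lies inside Itga2b as annotated in GENCODE M21, where the gene begins at 102470122 on the minus strand. By that annotation most of the Itga2b window lies within the gene. The Gp5 window held 3 GATA matches, beginning 115, 93 and 77 bases before the start, and 1 ETS match. The Gp1bb window held 1 GATA match, beginning 22 bases before the start, and 2 ETS matches. Among 32851 windows of the table, 29.8% held a GATA match and 46.5% an ETS match. Of the genes called higher, 7 had such a window, and 3 of the 7 held a GATA match (42.9%) and 6 an ETS match (85.7%). The genes called lower had 13 windows for 11 genes, of which 3 held a GATA match (23.1%) and 6 an ETS match (46.2%). These matches are a description of letters and not of bound sites.

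The remaining members of the von Willebrand factor receptor were not called. Vwf, the ligand, measured 36.1, 50.9 and 42.6 CPM in CD41- and 64.5, 79.2 and 76.04 CPM in CD41+ libraries, without overlap. It gave 0.78 ± 0.30 (adjusted p = 0.424, and 0.0951 with the block). Gp9, a small subunit, gave 0.88 ± 0.44 (adjusted p = 0.574, and 0.186 with the block). Gp1ba, the chain that binds the ligand, gave 0.82 ± 0.52 (adjusted p = 0.687, and 0.56 with the block). All 5 genes of the list had positive log2 fold changes, with a median of 0.88 in depleted and 1.30 in control mice. Itgb3, the beta chain that joins CD41, measured 6.11, 20.3 and 8.99 CPM and 26.7, 51.9 and 25.6 CPM. Its groups did not overlap, yet at 1.60 ± 0.43 it missed the threshold (adjusted p = 0.18, and 0.0208 with the replicate block). Over 14 integrin subunits edgeR called Itga2b, DESeq2, limma voom and the block fit each called Itga2b and Itgb3, and the median was 0.08.

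A further 6 genes were called higher. Cavin2, a coat protein of caveolae that is also abundant in platelets, lies on chromosome 1 (plus strand, 51289126 to 51302960). It measured 34.02, 34.6 and 47.5 CPM in CD41- and 191, 203 and 151 CPM in CD41+ libraries, a log2 fold change of 2.23 ± 0.22 with the smallest adjusted p of all genes (0.0012). Tuba8, an alpha-tubulin of platelets and other specialised cells, measured 18.9, 13.2 and 8.04 CPM and 126, 80.5 and 103 CPM. The lowest CD41+ library was several times above the highest CD41- library, with a log2 fold change of 2.90 ± 0.34 (adjusted p = 0.00174). Tuba8 shares exon bases with the opposite-strand gene Gm15856, and whether counting used the strand was not given in the sources used here.

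Fgf3, a secreted fibroblast growth factor, measured 14.3, 7.12 and 7.09 CPM in CD41- and 67.8, 49.4 and 50.1 CPM in CD41+ libraries. The groups were apart by 2.50 ± 0.37 on the log2 scale (adjusted p = 0.0135). Clu, clusterin, a chaperone stored in platelet granules, measured 34.02, 35.2 and 52.97 CPM and 112, 121 and 127 CPM and was higher by 1.57 ± 0.26 (adjusted p = 0.0281). Slc14a1, a urea transporter of red cells, was higher by 1.39 ± 0.21 (adjusted p = 0.0139), from 55.9 ± 16.5 CPM (SD, n = 3) in CD41- to 147 ± 16.4 CPM (SD, n = 3) in CD41+ cells. Ibsp, bone sialoprotein, a matrix protein of osteoblasts, measured 0.917, 0 and 0.473 CPM in CD41- and 27.8, 18.8 and 33.8 CPM in CD41+ libraries. It was higher by 5.58 ± 0.70 (adjusted p = 0.00857) and stands on the stromal and osteoblast list described below.

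Beyond these genes, the megakaryocyte programme was measured through 4 more lists, and few members were called. Among 32 genes of platelet granules and their formation, edgeR called Clu higher, DESeq2 called 5 higher and limma voom 4, 0 were called lower by any of them, and 10 were higher and 0 lower at an unadjusted p of 0.05, against 4.16% and 5.01% of all genes. The median of the list was 0.20, and 6 members were called higher with the replicate block. Pf4, platelet factor 4, a granule chemokine, measured 9.98, 8.17 and 5.20 CPM in CD41- and 33.4, 58.8 and 36.1 CPM in CD41+ libraries. The groups were separate, with a log2 fold change of 2.46 ± 0.48 (adjusted p = 0.0651, and 0.00682 with the block). Sparc, a matrix protein made by megakaryocytes and by stromal cells, gave 2.72 ± 0.52 (adjusted p = 0.0651, and 0.000342 with the block), and Rab27b, a GTPase of granule release, gave 0.97 ± 0.24 (adjusted p = 0.136, and 0.0244 with the block).

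Of 34 platelet receptors and signalling genes edgeR called 0, DESeq2 3 and limma voom 2, with a median of 0.12. At an unadjusted p of 0.05, 9 were higher and 2 lower, against 4.16% and 5.01% of all genes. Rap1b, the GTPase that activates platelet integrins, measured 103, 114 and 155 CPM in CD41- and 294, 190.1 and 242 CPM in CD41+ libraries and missed the threshold at 0.96 ± 0.19 (adjusted p = 0.0651, and 0.0306 with the block). F2rl2, a thrombin receptor, gave 2.79 ± 0.57 (adjusted p = 0.068, and 0.0208 with the block). Treml1, a receptor held in platelet granules, gave 2.24 ± 0.51 and missed the threshold in both fits (adjusted p = 0.117, and 0.079 with the block). In the same list Gp6, the collagen receptor chain, Ly6g6f and Adra2a had 0 counts in all 6 libraries. Whether depth or the counting left these genes at 0 was not tested. Of 27 cytoskeleton genes of megakaryocytes Tuba8 was the only one called by edgeR, DESeq2, limma voom or the block fit (median 0.15). Of 12 genes of eicosanoid synthesis and response 0 were called by any of the 3 tools, 1 was higher and 1 lower at an unadjusted p of 0.05, and the median was 0.27.

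No transcription factor of the megakaryocyte and erythroid list was called by edgeR. Of 26 tested, 5 were higher and 1 lower at an unadjusted p of 0.05, against 4.16% and 5.01% of all genes. DESeq2 called 4 higher and limma voom 2, and the median was -0.05. Gata1, which drives both lineages, measured 28.01, 16.3 and 17.7 CPM in CD41- and 94.5, 77.2 and 93.5 CPM in CD41+ libraries. The groups were far apart in every library, yet at 2.07 ± 0.41 the gene missed the threshold (adjusted p = 0.0651, and 0.000809 with the block). Gfi1b, a repressor needed for both lineages, gave 0.89 ± 0.18 (adjusted p = 0.0761, and 0.0538 with the block). Mef2c, a megakaryocyte factor, gave 0.70 ± 0.17 (adjusted p = 0.144, and 0.0465 with the block). Among 20 erythroid genes edgeR called 0, DESeq2 2 and limma voom 1, 4 were higher at an unadjusted p of 0.05, and 18 had positive log2 fold changes. Their median was 0.51, and 1.53 without CD41- replicate 1. Aqp1, a water channel of red cells, gave 1.43 ± 0.33 (adjusted p = 0.117, and 0.0719 with the block). Epor, the erythropoietin receptor, gave 1.06 ± 0.29 (adjusted p = 0.195, and 0.0951 with the block).

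Among the genes lower in CD41+ cells were 2 used to recognise long-term stem cells. Procr, the endothelial protein C receptor, lies on chromosome 2 (plus strand, 155751117 to 155755471) and measured 72.8, 72.5 and 63.1 CPM in CD41- and 15.6, 27.4 and 26.2 CPM in CD41+ libraries. The CD41- libraries lay close together and all above the CD41+ ones, and the gene was lower in CD41+ cells by a log2 fold change of -1.53 ± 0.23 (adjusted p = 0.0166). Hlf, a transcription factor of stem cells, measured 147, 154 and 166 CPM and 40.04, 82.3 and 73.1 CPM, a log2 fold change of -1.21 ± 0.22. Its adjusted p was 0.0472, but Hlf was called in 0 of 11 fits that each left out 1 library, with adjusted p up to 0.17. Of 28 stem cell identity genes these 2 were called lower and 0 higher. At an unadjusted p of 0.05, 8 were lower and 3 higher, against 5.01% and 4.16% of all genes. The median was -0.53 (-0.50 in control mice). With the block 3 were called lower and 2 higher, DESeq2 called 2 lower and 1 higher, and limma voom 2 lower and 0 higher. Slc22a3, a cation transporter, gave the opposite sign at 1.22 ± 0.31 and missed the threshold (adjusted p = 0.153, and 0.0163 with the block), but DESeq2 called it higher. Pdzk1ip1, a membrane protein of stem cells, gave -0.69 ± 0.21 (adjusted p = 0.25, and 0.142 with the block).

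Of the other genes of the sort gate edgeR called 0, while DESeq2 and the block fit each called Ly6a lower. Ly6a, which encodes Sca-1, measured 149, 161 and 259 CPM in CD41- and 65.6, 48.02 and 103 CPM in CD41+ libraries, without overlap, at -1.38 ± 0.34 (adjusted p = 0.153, and 0.0172 with the block). Kit ranged from 83.4 to 554 CPM over the 6 libraries with overlap and gave -0.60 ± 0.56 (adjusted p = 0.826, and 0.172 with the block). Slamf1, which encodes CD150, gave 0.18 ± 0.26 (adjusted p = 0.898, and 0.818 with the block). In control mice it was called higher in CD41+ cells, at 1.31 ± 0.28 (adjusted p = 0.025). The difference between treatments was -1.13 (unadjusted p = 0.0103, adjusted p = 0.606). Cd48, whose product the gate excludes, ranged from 28.7 CPM to 106 CPM in CD41+ replicate 1. It overlapped between fractions and gave 0.50 ± 0.47 (adjusted p = 0.826, and 0.424 with the block).

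Lymphoid genes formed another share of the decreases. Flt3, the receptor tyrosine kinase of lymphoid-primed progenitors, lies on chromosome 5 (minus strand, 147330741 to 147400489) and measured 125, 112 and 63.1 CPM in CD41- and 24.5, 34.1 and 15.4 CPM in CD41+ libraries. Replicate 3 was the lowest of either fraction, and the groups were apart by -2.01 ± 0.34 (adjusted p = 0.0281). Cd27, a TNF receptor family member, measured 143, 156 and 120.4 CPM and 55.6, 70.6 and 61.2 CPM and was lower by a log2 fold change of -1.15 ± 0.18 (adjusted p = 0.017). Ltb, lymphotoxin beta, measured 52.8, 72.7 and 52.3 CPM and 20.02, 20.97 and 30.3 CPM, at -1.29 ± 0.23 (adjusted p = 0.0408), and was called in 2 of 11 fits that left out 1 library. These 3 of 20 lymphoid priming genes were called lower (0.126% of all genes) and 0 higher. DESeq2 called 5 lower (0.706% of all genes) and limma voom 3 (0.238%). At an unadjusted p of 0.05, 7 were lower and 1 higher, against 5.01% and 4.16% of all genes. The median was -0.28, and 6 members had positive log2 fold changes, up to 2.14. Il2rg, the common cytokine receptor chain, missed the threshold at -1.09 ± 0.24 (adjusted p = 0.0993, and 0.0232 with the block). H2-Oa, a chain of the class II regulator H2-O of B cells, was outside the list and lower at -1.74 ± 0.30 (adjusted p = 0.0398, called in 3 of 11 fits that left out 1 library).

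Ifitm1, a member of the interferon-induced transmembrane family that restricts viral entry, was among the decreases. It lies on chromosome 7 (plus strand, 140967221 to 140969825) and measured 2160.1, 2491 and 2226 CPM in CD41- and 689.6, 800.4 and 988 CPM in CD41+ libraries. All CD41- values were well above the highest CD41+ value, and the log2 fold change was -1.47 ± 0.19 (adjusted p = 0.0068). Tmem173, which encodes the DNA sensor adaptor STING, measured 117, 155 and 138 CPM and 54.5, 60.2 and 58.8 CPM and was lower at -1.23 ± 0.22 (adjusted p = 0.0398). Socs2, a feedback inhibitor of cytokine receptors including that of growth hormone, measured 176, 178 and 222 CPM and 107, 93.1 and 108 CPM, at -0.91 ± 0.16 (adjusted p = 0.0408), and was called in 1 of 11 fits that left out 1 library. Its level in control mice was lower in both fractions, at 48.4 ± 4.15 CPM (SD, n = 3) in CD41- and 36.3 ± 2.63 CPM (SD, n = 2) in CD41+ cells.

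Most interferon response genes had lower values in CD41+ cells, although edgeR called none of them, limma voom 0 and DESeq2 2. Of 44 tested, 41 had negative log2 fold changes (7060 of all 13448 genes did), and 11 were lower without overlap of the libraries (9.32% of all genes). At an unadjusted p of 0.05, 16 were lower and 0 higher, against 5.01% and 4.16% of all genes. The median was -0.66 in depleted and -0.27 in control mice, and over the 20 alternatives it ran from -0.95 to -0.30. With the replicate block 6 members were called lower. Irf1, a transcription factor induced by interferon, measured 88.7, 97.6 and 118 CPM in CD41- and 57.8, 40.96 and 55.4 CPM in CD41+ libraries, at -0.998 ± 0.22 (adjusted p = 0.0934, and 0.0326 with the block). Irf9, the DNA-binding part of the interferon-activated complex ISGF3, gave -0.79 ± 0.19 (adjusted p = 0.136, and 0.0597 with the block). Ifi44 gave -0.99 ± 0.26 (adjusted p = 0.179, and 0.0494 with the block). CD41- replicate 3 had the highest summed level of the list, 6469.9 CPM, against 4008 and 4382 CPM in the other CD41- libraries and 3049.9, 3240.0 and 4149.9 CPM in the CD41+ libraries. CD41- replicate 1 lay below CD41+ replicate 3, so the summed levels overlapped.

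The remaining decreases had mixed roles. mt-Co1, subunit 1 of cytochrome c oxidase, encoded on the mitochondrial genome (5328 to 6872, plus strand), measured 6804, 6277 and 5764 CPM in CD41- and 3257, 3043 and 3707 CPM in CD41+ libraries. It was lower by a log2 fold change of -0.91 ± 0.17 (adjusted p = 0.0408) and was called in 3 of 11 fits that left out 1 library. The 7 mitochondrially encoded genes tested had a median of -0.51 with 6 negative. The other 6 of the 13 genes in that list were at 0 counts in all 6 libraries, mt-Co2 and mt-Co3 among them, genes that every cell uses, so levels of mt-Co1 are uncertain. Pcp4l1, a small protein related to Purkinje cell protein 4, was lower at -2.01 ± 0.28 (adjusted p = 0.0088), Anxa6, a calcium-dependent membrane-binding annexin, at -1.08 ± 0.18 (adjusted p = 0.0281), and Limd2, a LIM domain protein, at -0.88 ± 0.14 (adjusted p = 0.0276). Laptm4b, a lysosomal membrane protein, was lower at -1.17 ± 0.21 (adjusted p = 0.0408). Dkkl1 at -1.21 ± 0.21 and Lrrn4 at -1.69 ± 0.31 were lower as well (adjusted p = 0.0309 and 0.0408), though Lrrn4 was called in 1 of 11 fits that left out 1 library. Limd2 and H2-Oa share exon bases with genes on the opposite strand.

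The title of the study names receptor tyrosine kinases, and their genes were read through 26 tested members. Flt3 was called lower by edgeR, DESeq2 and limma voom, and limma voom also called Flt4 and Kdr higher. At an unadjusted p of 0.05, 3 were higher and 1 lower, against 4.16% and 5.01% of all genes. Log2 fold changes were negative for 15 and positive for 11, and the median was -0.49 (-0.26 in control mice, and -0.19 without CD41+ replicate 1). Egfr gave 4.84 ± 1.48 (adjusted p = 0.28, and 0.186 with the block), from 2 counts over the CD41- and 34 over the CD41+ libraries. Kdr, a receptor for vascular endothelial growth factor, measured 1.94, 7.96 and 8.75 CPM in CD41- and 7.79, 27.6 and 24.2 CPM in CD41+ libraries. It gave 1.77 ± 0.60 (adjusted p = 0.334, and 0.0631 with the block). Flt4, another receptor of that family, gave 2.41 ± 0.77 (adjusted p = 0.288, and 0.212 with the block). Both are also carried by endothelial cells, whose markers are described below. Of 25 genes of insulin receptor and PI3K signalling edgeR and limma voom called 0 and DESeq2 1. At an unadjusted p of 0.05, 4 were lower and 0 higher, against 5.01% and 4.16% of all genes. The median was -0.30 in both treatments. Pik3r1, the regulatory subunit of PI3-kinase, gave -0.94 ± 0.24 (adjusted p = 0.153, and 0.0326 with the block). Foxo3, a transcription factor restrained by this pathway, gave -0.90 ± 0.28 (adjusted p = 0.283, and 0.158 with the block). Of 11 ERK feedback genes 0 were called by any of the 3 tools (1 at an unadjusted p of 0.05, median -0.35). Dusp2, a phosphatase of ERK, gave -0.998 ± 0.36 (adjusted p = 0.37, and 0.137 with the block). Of 15 immediate early genes 0 were called by any of these tools (1 at an unadjusted p of 0.05, median 0.17). Jun gave -0.54 ± 0.24 (adjusted p = 0.514, and 0.343 with the block).

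**Figure D3:**
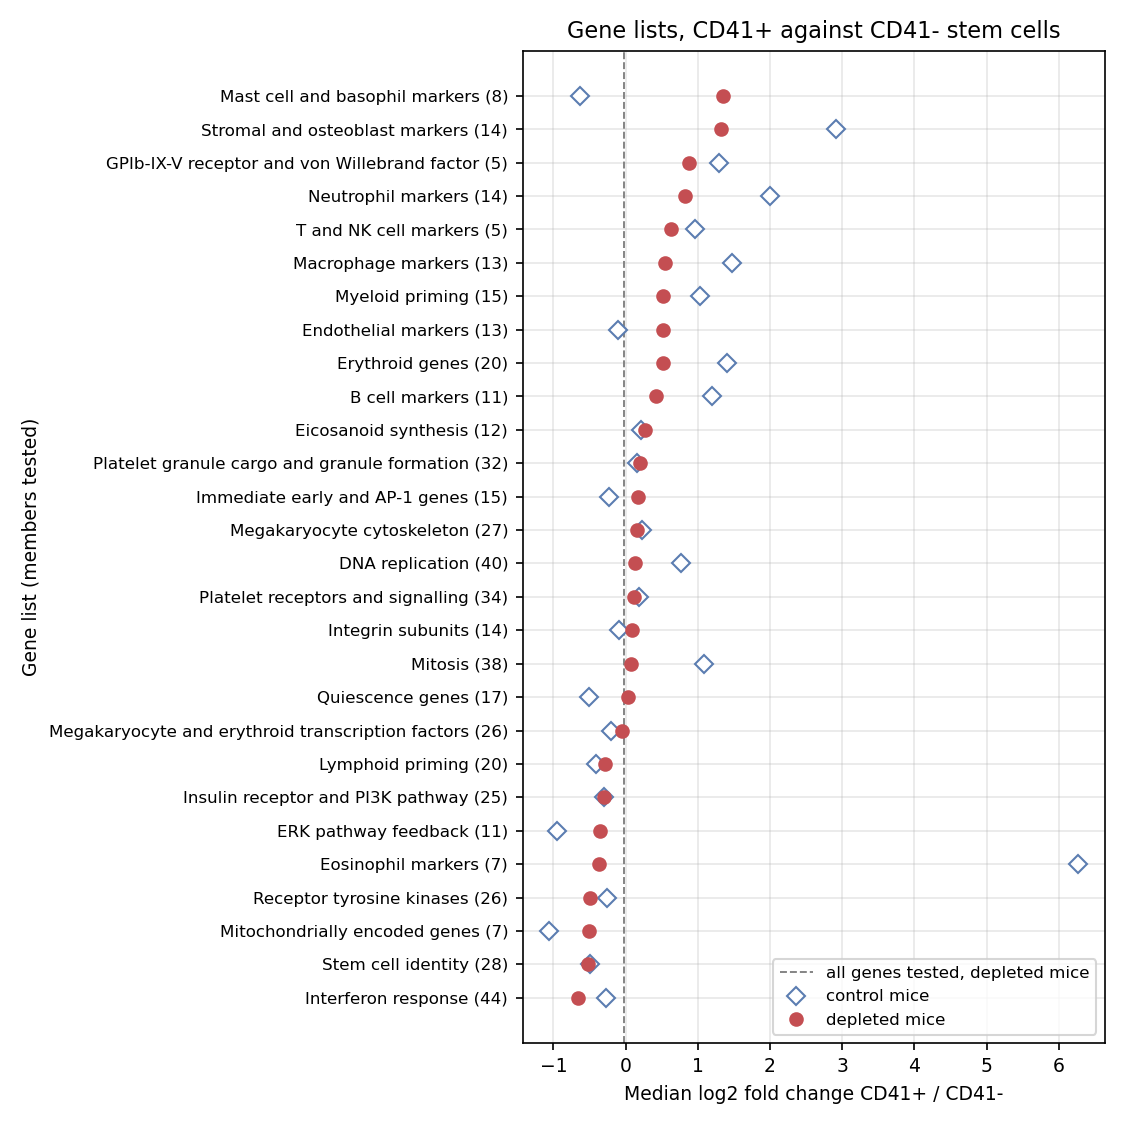
The median log2 fold change of CD41+ against CD41- cells is plotted for each gene list with at least 5 tested members, with filled circles for depleted mice, open diamonds for control mice and a dashed line at the median of all genes in depleted mice. Interferon response has the lowest median in depleted mice (-0.66), and the lists of DNA replication and mitosis lie near 0 in depleted mice but at 0.76 and 1.08 in control mice.

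No gene of the cell cycle lists was called after depletion by edgeR, DESeq2 or limma voom. The 40 DNA replication genes had a median of 0.12, with 2 higher and 0 lower at an unadjusted p of 0.05. The 38 mitosis genes had a median of 0.08, with 2 higher and 1 lower. Of all genes, 4.16% were higher and 5.01% lower at that level. In control mice 16 and 20 of them were called higher in CD41+ cells, where 212 of all genes were (1.58%, against 1.04% lower). Ccne2, cyclin E2, measured 121, 116 and 105 CPM in CD41- and 192, 145 and 182 CPM in CD41+ libraries after depletion. It gave 0.60 ± 0.20 there (adjusted p = 0.324, and 0.127 with the block), against 1.69 in control mice (adjusted p = 0.00304). Ccnb1, cyclin B1, gave 0.57 ± 0.20 (adjusted p = 0.337, and 0.137 with the block) after depletion and 1.48 (adjusted p = 0.00367) in control mice. Rrm1, the large subunit of ribonucleotide reductase, measured 972, 978 and 826 CPM in CD41- and 1147, 1136 and 951 CPM in CD41+ libraries, and the ranges overlapped. Its log2 fold change was 0.22 ± 0.14 after depletion (adjusted p = 0.707) and 1.34 in control mice (adjusted p = 0.00198), and the difference between these was -1.12 (unadjusted p = 0.000133, adjusted p = 0.304). The test of the difference between treatments reached an unadjusted p of 0.05, in the negative direction, for 20 of the 40 replication and 29 of the 38 mitosis genes, against 442 of all genes (3.29%). None of them passed after adjustment. Of 17 quiescence genes edgeR and limma voom called 0 and DESeq2 1, with 1 higher and 5 lower at an unadjusted p of 0.05, and the sign of their median (0.03) changed with the setting, from -0.45 to 0.10.

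Markers of other cells were read because any of them can enter a sort of rare cells. All 14 neutrophil markers had positive log2 fold changes (median 0.82, and 2.003 in control mice), edgeR, DESeq2 and limma voom called 0, 0 reached an unadjusted p of 0.05, and 3 were called higher with the block. S100a8, a neutrophil calcium-binding protein, measured 14427, 1955 and 9326 CPM in CD41- and 23593, 5544 and 26115 CPM in CD41+ libraries. Replicate 2 was the lowest of either fraction, and the ranges overlapped (adjusted p = 0.775, and 0.0241 with the block). Of 14 stromal and osteoblast markers edgeR called Ibsp higher, DESeq2 3 (0.833% of all genes) and limma voom 2 (0.535%). At an unadjusted p of 0.05, 6 were higher and 1 lower, against 4.16% and 5.01% of all genes. The median was 1.32, or 3.39 without CD41- replicate 3. Cxcl12, the chemokine of stromal cells that retains stem cells in marrow, measured 1.53, 0.209 and 284 CPM in CD41- and 311, 136 and 282 CPM in CD41+ libraries. CD41- replicate 3 thus reached the CD41+ level of Cxcl12 while the other CD41- libraries were close to 0. Cxcl12 gave 284 of the 481 CPM summed over the list in that library. In the same library Ibsp (0.473 CPM), Sparc (33.6 CPM) and Dcn (1.42 CPM) were below every CD41+ library. Lepr, at 6.62 CPM there, was above CD41+ replicate 2 (6.08 CPM). Sp7, a factor that defines osteoblasts, had 0 counts in all 6 libraries. The part of stromal RNA in the differences of Ibsp and Sparc was not tested.

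Of 13 endothelial markers edgeR called 0, DESeq2 3 higher (0.833% of all genes), limma voom 4 (0.535%) and the block fit 4 (0.669%). At an unadjusted p of 0.05, 6 were higher and 1 lower, against 4.16% and 5.01% of all genes. The median was 0.51 (-0.11 in control mice). Cldn5, a tight junction protein, measured 10.7, 11.9 and 4.49 CPM in CD41- and 26.7, 36.8 and 51.6 CPM in CD41+ libraries, at 2.09 ± 0.40 (adjusted p = 0.0568, and 0.0402 with the block). Stab2, a scavenger receptor of sinusoids, measured 1.43, 3.14 and 4.73 CPM and 7.79, 23.9 and 31.8 CPM, at 2.85 ± 0.58 (adjusted p = 0.0688, and 0.0138 with the block). Both were higher in each CD41+ library than in any CD41- library. The 3 endothelial markers with the highest CPM had the opposite sign. Egfl7, a secreted endothelial protein, measured 131, 196 and 149.9 CPM in CD41- and 98.99, 114 and 87.98 CPM in CD41+ libraries, without overlap. It gave -0.66 ± 0.19 (adjusted p = 0.214, and 0.0692 with the block). Tie1, an endothelial receptor kinase, gave -0.56 ± 0.27 (adjusted p = 0.558, and 0.122 with the block). Eng, a co-receptor of the TGF-beta family, gave -0.37 ± 0.21 (adjusted p = 0.636, and 0.263 with the block). Of the 13 markers 4 had negative log2 fold changes, and the summed level of the list overlapped, from 569.5 to 853.1 CPM in CD41+ and from 662.7 to 925.1 CPM in CD41- libraries. The part of endothelial RNA in the values of Kdr and Flt4 was not tested. Of 13 macrophage (median 0.55), 15 myeloid (0.52), 11 B cell (0.41), 5 T and NK cell (0.63), 8 mast cell and basophil (1.35) and 7 eosinophil markers (-0.36), edgeR called 0, with 1 macrophage and 1 T and NK cell marker higher and 1 myeloid and 1 T and NK cell marker lower at an unadjusted p of 0.05. DESeq2 and limma voom each called 1 macrophage marker and 0 of the rest. The mast cell markers Cma1, Tpsb2, Tpsab1 and Mcpt4 had 0 counts in all 6 libraries.

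The CD41 difference in control mice shares no library with that in depleted mice, so its fold changes are measured in other samples. Its calls are not separate, because both differences come from 1 fit with shared dispersions, and leaving out a control library moved the count in depleted mice to between 20 and 32. All 26 had the same sign in control mice, and 19 were called there (73.1%), where 352 of all genes were called (2.62%). Those 19 are 5.40% of the 352. The median of the 9 genes called higher was 2.50 after depletion and 2.04 in control mice, and that of the 17 called lower was -1.23 and -1.22. Because these genes were chosen by their values after depletion, the larger medians there are not a test of a change. Itga2b gave 2.50 ± 0.26 in control mice (adjusted p = 0.00198), Cavin2 2.01 ± 0.24 (adjusted p = 0.00198) and Flt3 -1.93 ± 0.37 (adjusted p = 0.0164). Ibsp had 0 counts in the 3 control CD41- libraries and was at least 46.5-fold higher in control CD41+ cells when 3 counts in the whole group are taken as the floor. The 7 genes not called in control mice were Fgf3, Cd27, Limd2, Anxa6, Dkkl1, Tmem173 and Socs2, with adjusted p between 0.0574 (Dkkl1) and 0.262 (Socs2).

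The test of the difference between treatments called 0 of 13448 genes (0%), with 825 at an unadjusted p of 0.05 (6.13%), while limma voom called 0 and DESeq2 called 35. Among the 26 genes it reached an unadjusted p of 0.05 for 2. Fgf3 measured 28.3, 25.4 and 12.9 CPM in control CD41- libraries and 37.1 and 52.1 CPM in control CD41+ libraries, a log2 fold change of 1.01 ± 0.38 there (adjusted p = 0.166). Its difference was larger after depletion by 1.49 (unadjusted p = 0.0135, adjusted p = 0.642). Gp5 measured 27.2, 17.3 and 27.00 CPM in control CD41- and 81.8 and 83.1 CPM in control CD41+ libraries. The CD41- libraries of depleted mice lay below those of control mice, and the CD41+ ones likewise, and the CD41 difference was larger by 1.12 (unadjusted p = 0.0293, adjusted p = 0.732). By the edgeR fit, no called gene is therefore shown to differ between depleted mice and controls in its CD41 difference. Whether any of the 26 was among the genes called for it by DESeq2 or other settings is not reported here.

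**Figure D4:**
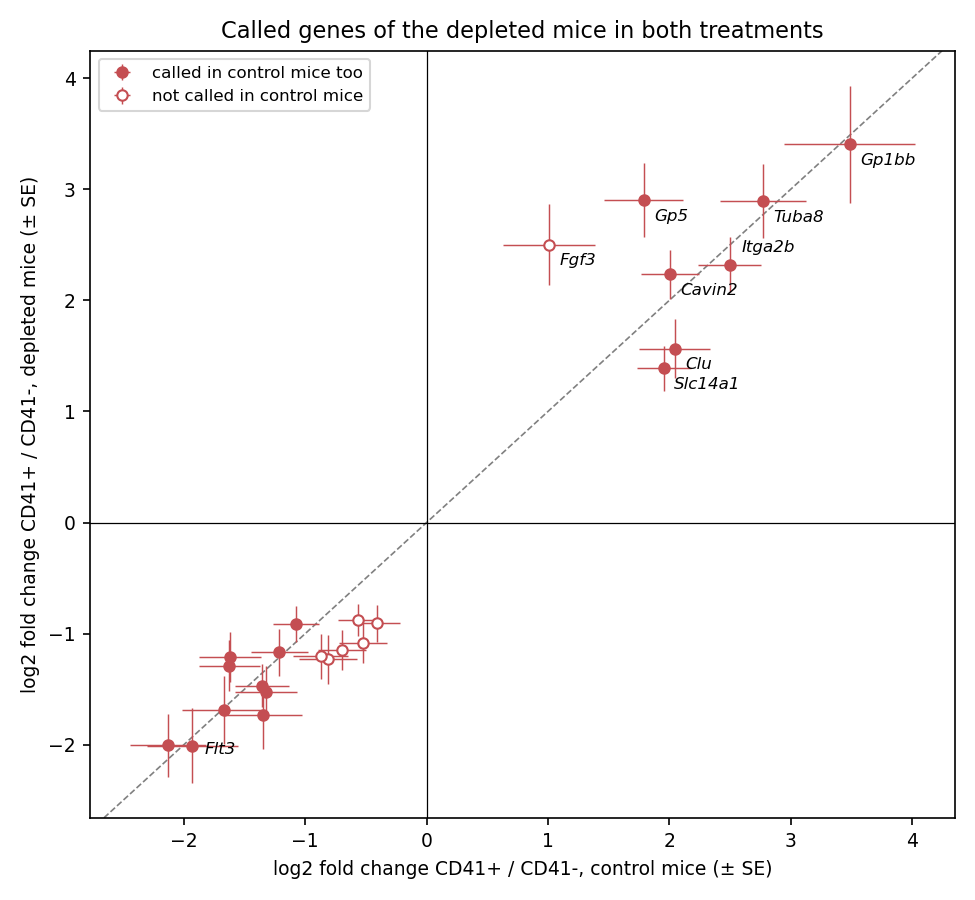
The log2 fold change of CD41+ against CD41- cells in depleted mice (vertical axis) is plotted against that in control mice (horizontal axis), with bars of 1 SE, for the called genes named in the text except Ibsp, which had 0 counts in control CD41- cells; the dashed line marks equal values. All points lie in the quadrants of equal sign, and Fgf3 and Gp5 stand farthest above the line.

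Read from the side of the control mice, the fold changes were smaller after depletion. Of 212 genes called higher in control CD41+ cells, 179 had the same sign in depleted mice (84.4%), 91 were higher without overlap (42.9%, against 8.35% of all genes) and 8 were called. Their median was 1.19 in control mice, in which they were chosen, and 0.27 in depleted mice. Of 140 genes called lower in control CD41+ cells, 134 had the same sign after depletion (95.7%), 73 were lower without overlap (52.1%, against 9.32%) and 11 were called, and the median was -1.66 and -0.61. Because these genes were chosen by their control values, the larger control medians are not a test of a change. Over all 13448 genes the log2 fold changes of both treatments correlated with r = 0.41 (Spearman 0.44), across genes, which are not independent replicates. Zfp608, a zinc finger protein, had the smallest p for the difference between treatments. It measured 31.2, 44.2 and 34.5 CPM in CD41- and 13.3, 28.03 and 21.6 CPM in CD41+ libraries after depletion, at -0.74 ± 0.35 (adjusted p = 0.557), against -4.06 in control mice (adjusted p = 0.00198), and the adjusted p of the difference was 0.304.

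**Figure D5:**
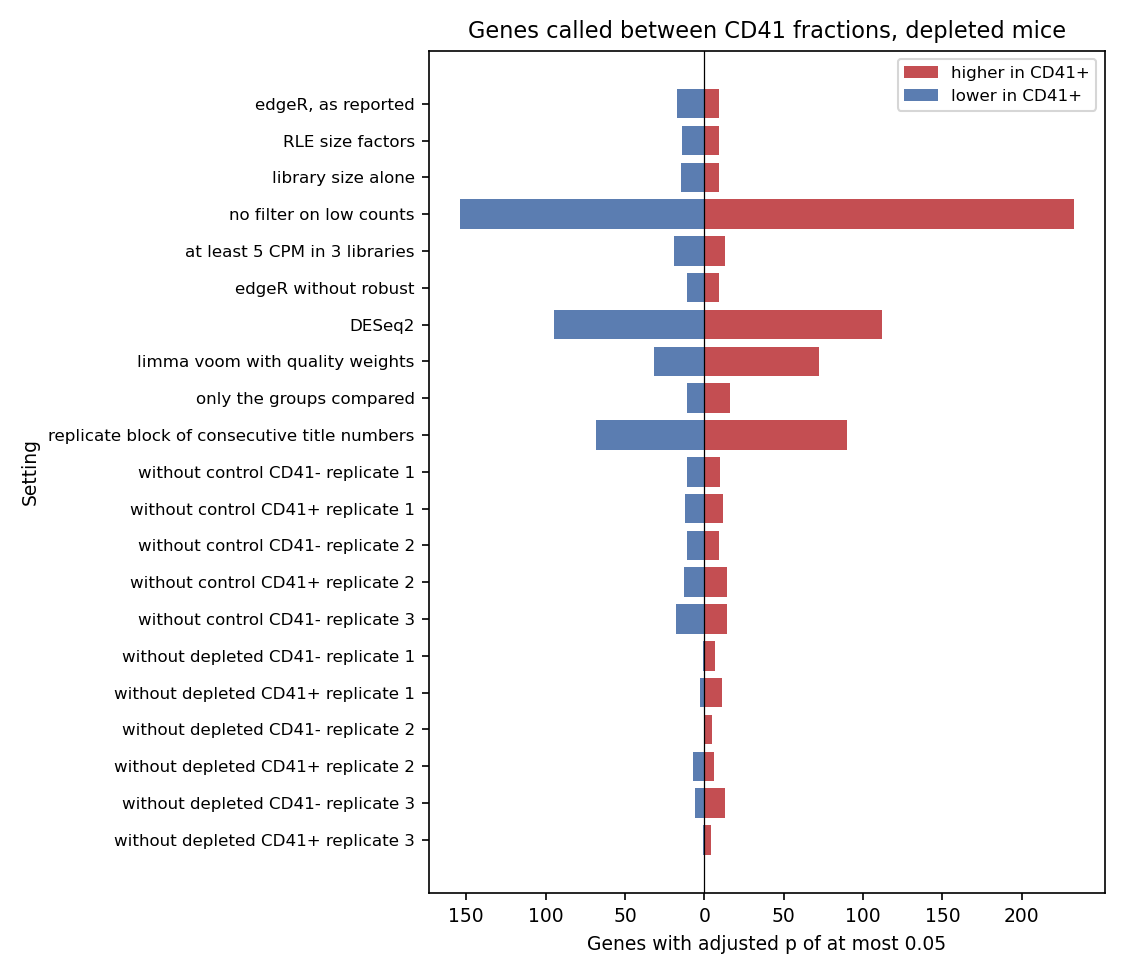
Bars give the number of genes with an adjusted p of at most 0.05 between CD41+ and CD41- cells of depleted mice under each setting, to the right for higher and to the left for lower in CD41+ cells. The reported fit gives 9 and 17 genes, the replicate block 90 and 68, and the fits that leave out a depleted library give 5 to 19 genes in all.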

How the data were processed

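Per the labels' protocols, cDNA from 1000 sorted cells per library went through 17 cycles of PCR, and 1.5 ng of it was tagmented and given indices in 12 further cycles. The tools were cutadapt, STAR and HTSeq 0.6.1p1 and the builds GRCm38 and mm10, per the submitters' processing notes. The authors deposited whole-number counts per gene, used here as deposited. Whether strand was used is not given in the sources.

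Of 49585 entries, 49326 had a symbol in GENCODE M21. A filter on low counts (filterByExpr, at 10 counts and a total of 15) passed 13448 genes, which held 99.7% of counts. Counts were scaled by TMM and fitted over all 11 libraries in 4 groups with the robust quasi-likelihood model of edgeR 4.0.16 in R 4.3.3 (7 residual degrees of freedom). Contrasts were adjusted by Benjamini-Hochberg over all genes, and genes are "called" at 0.05. Each SE was derived from the fold change and its F statistic (log2 fold change divided by the root of F). The procedure was also run on simulated counts, drawn independently for each library with the dispersions of this fit. The simulation held no pairing of libraries and no RNA of other cells. It therefore does not vouch for the calls here, and its outcome is not reported here. Alternatives were RLE factors, library size alone, other filters, no robust step, DESeq2 1.42.0, limma 3.58.1 voom with quality weights, only the groups compared, a replicate block, and leaving out each library. The block pairs CD41- and CD41+ libraries with consecutive title numbers, a pairing the labels do not state. Their deviations from the group means correlated at 0.228, 0.343 and 0.207 in depleted mice, against -0.198 to -0.013 for other pairs. Deviations within a group cancel out, so positive values for some pairs push the other pairs down. The negative values of other pairs are therefore not separate support for the pairing.

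Named genes were the sort gate genes, every called gene, the von Willebrand receptor list, and in each list up to 4 members with the smallest p, the 4 smallest p for the difference between treatments, and up to 3 of the highest markers per marker list, with those the results turn on given here. A few genes, among them 1 called gene, are counted but not reported here. Promoter windows came from RefSeq (GRCm38.p6), without those of chromosome 18. Members and lists were chosen with earlier results of these data known.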

Additional observations from a re-analysis of the deposited data

How the results depend on the processing

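The count of 26 genes in depleted mice depended on the setting. It was 387 with no filter on low counts, 207 by DESeq2, 104 by limma voom with quality weights and 158 with the replicate block, and 5 to 32 when 1 library was left out. Among depleted CD41- libraries, leaving out replicate 1 gave 8 genes and replicate 2 gave 5. Among depleted CD41+ libraries, leaving out replicate 1 gave 14, replicate 2 gave 13 and replicate 3 gave 5. The remaining settings gave 19 to 32 genes. In control mice the count of 352 was 1142 with no filter, 994 by DESeq2, 176 by limma voom, 138 with only the groups compared, and 48 to 545 when 1 library was left out. The difference between treatments had 0 genes, but 178 with no filter, 35 by DESeq2 and 2 with the replicate block, and 0 whichever library was left out. The cause of these shifts was not tested. Scaling by RLE or by library size alone moved the median of all genes in depleted mice by 0.03 and -0.05 on the log2 scale. CD41+ replicate 1, with 0.974 M counts, limits what can be seen for genes under 3.34 CPM, and control CD41+ cells had 2 libraries.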
